A study of Arabidopsis thaliana with 6 samples.

Results

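The 9 genes described here encode zinc finger and CBF proteins of Arabidopsis thaliana whose RNA is known to accumulate quickly after stress. They are the C2H2 zinc finger genes ZAT6 (AT5G04340), ZAT10 (AT1G27730), ZAT11 (AT2G37430) and ZAT12 (AT5G59820), the tandem CCCH zinc finger genes SZF1 (AT3G55980) and SZF2 (AT2G40140), and the cold-response genes CBF1 (AT4G25490), CBF2 (AT4G25470) and CBF3 (AT4G25480). They were chosen by locus identifier from 32833 genes counted by RNA sequencing, and all 9 were listed in each of the 6 libraries. There were 3 genotypes with 2 libraries each, all in the Col-0 ecotype. Col-0 was the wild type. LNJ-OX plants overexpressed LITTLE NINJA, a synthetic microProtein related to AFP2 that carries a domain of the NINJA family, with an N-terminal FLAG tag and under a doubled CaMV 35S promoter, which is active in most cells. The study describes jazD as a decuple mutant of JAZ genes, which encode repressors of jasmonic acid signalling. The labels do not say which JAZ genes are mutated. Plants were 21 days old, had grown on soil with 16 h of light at 22 °C and 8 h of dark at 18 °C, received no treatment and were collected without roots. How many plants went into a library, which transgenic line was sequenced and the hour of harvest were not given in the sources used here. The comparisons ask whether overexpression of the microProtein and loss of JAZ repressors changed the resting level of these genes.

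ZAT proteins carry C2H2 fingers of the plant-specific QALGGH type, and several of them hold an EAR motif and repress transcription. ZAT10, also known as STZ, and ZAT12 are best known from salt, cold and oxidative stress. SZF1 and SZF2 carry a pair of CCCH fingers and are known from the response to salt and to elicitors. CBF1, CBF2 and CBF3 are AP2-domain activators that bind the CRT/DRE element in front of cold-response genes such as COR15A. Their RNA rises within a short time in the cold and also follows a daily rhythm through the circadian clock.

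The sequences in front of the genes are shown first, because ZAT6 with ZAT10, and SZF1 with SZF2, held the same matches. Sequences and positions were taken from the RefSeq annotation of the TAIR10.1 assembly, whereas the counts were made on TAIR10. The window searched ran from 250 bases before to 50 bases after each annotated start, on both strands. The motifs were the CRT/DRE core CCGAC, the rapid stress response element CGCGTT, the CM2 element CCGCGT and the G-box CACGTG. Also searched were the W-box core TTGAC, the GCC box GCCGCC and AAATATCT, a short form of the evening element. In what follows capitals mark a match on either strand, and each run is the 250 bases before the start, read 5′ to 3′ on the strand of the gene. ZAT6 (chr5:1217363-1217612, minus strand) and ZAT10 (chr1:9649324-9649573, minus strand) had the largest estimates in jazD of the 6 members tested.
ZAT6: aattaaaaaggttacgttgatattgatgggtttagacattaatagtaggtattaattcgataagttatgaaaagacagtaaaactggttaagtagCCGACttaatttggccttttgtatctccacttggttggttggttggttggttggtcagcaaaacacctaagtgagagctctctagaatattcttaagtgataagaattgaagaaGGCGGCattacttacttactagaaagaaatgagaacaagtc
ZAT10: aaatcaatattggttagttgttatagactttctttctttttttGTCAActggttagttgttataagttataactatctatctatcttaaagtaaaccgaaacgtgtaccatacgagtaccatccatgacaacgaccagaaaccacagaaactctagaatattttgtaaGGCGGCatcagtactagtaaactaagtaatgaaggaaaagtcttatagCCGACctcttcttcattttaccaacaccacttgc
SZF1 (chr3:20775970-20776219, plus strand) and SZF2 (chr2:16771747-16771996, plus strand) are the members with the highest level in LNJ-OX.
SZF1: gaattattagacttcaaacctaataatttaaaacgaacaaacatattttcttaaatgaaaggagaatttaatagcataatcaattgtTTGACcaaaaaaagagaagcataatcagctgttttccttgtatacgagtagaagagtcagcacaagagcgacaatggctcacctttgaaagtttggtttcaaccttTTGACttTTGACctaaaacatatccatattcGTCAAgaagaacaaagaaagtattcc
SZF2: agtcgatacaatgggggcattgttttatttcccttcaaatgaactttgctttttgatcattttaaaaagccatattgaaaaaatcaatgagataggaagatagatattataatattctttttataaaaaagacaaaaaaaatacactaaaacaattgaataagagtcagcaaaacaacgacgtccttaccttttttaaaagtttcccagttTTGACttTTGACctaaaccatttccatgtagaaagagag
CBF2 (chr4:13016236-13016485, minus strand) is the CBF gene with matches to most of the motifs searched.
CBF2: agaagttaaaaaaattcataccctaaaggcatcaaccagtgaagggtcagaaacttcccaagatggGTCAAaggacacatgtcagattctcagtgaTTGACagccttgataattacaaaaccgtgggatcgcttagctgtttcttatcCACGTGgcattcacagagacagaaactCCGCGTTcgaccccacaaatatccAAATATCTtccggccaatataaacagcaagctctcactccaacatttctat

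Both ZAT6 and ZAT10 held a GCC box, a CRT/DRE core and a G-box, the last of these 22 and 10 bases after the start. A GCC box was present in 2.57% of the 27443 gene windows searched, a CRT/DRE core in 15%, a G-box in 7.68% and all of them together in 0.0802%. None of the other 7 genes held a GCC box or a CRT/DRE core. SZF1 and SZF2 held W-box cores as a pair in the same direction, 2 bases apart, starting 57 and 39 bases before their starts. Such a pair was present in 0.397% of all windows. A single W-box core was present in 50.5% of all windows and in 7 of the 9 genes. This pair and the combination in ZAT6 and ZAT10 were noticed after the matches had been seen. The pair lies in a stretch of 29 bases that is identical at 27 positions in the SZF genes, with the 2 differing bases in capitals.
SZF1 stretch: ttttgacttttgacctaaaAcatAtccat
SZF2 stretch: ttttgacttttgacctaaaCcatTtccat
The evening element is a motif bound by clock proteins. Its short form was found in CBF1, CBF2, CBF3 and ZAT12, 4 of the 9 genes, and in 5.65% of all windows. CBF2 held the CM2 element at 75 bases before the start, and it overlaps the rapid stress response element that begins 74 bases before the start. The CM2 element was also found in ZAT12. It was present in 2.27% and the rapid stress response element in 3.4% of all windows. A match is a string of letters and was not tested as a binding site.

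**Figure D1:**
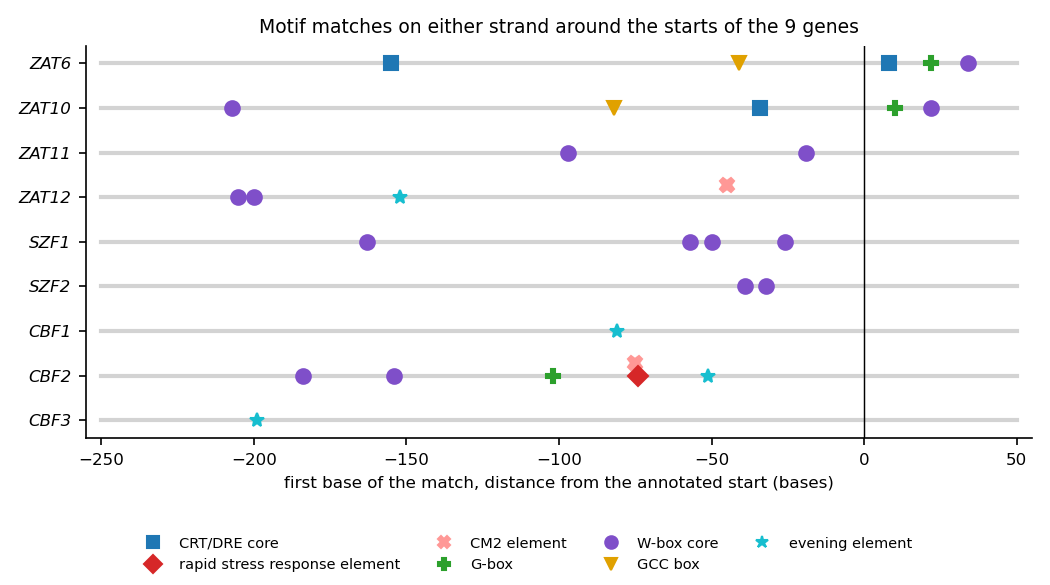
Motif matches in the 9 genes, with the distance from the annotated start in bases on the horizontal axis and a row per gene. ZAT6 and ZAT10 carry a GCC box (triangles) and a CRT/DRE core (squares), and SZF1 and SZF2 carry paired W-box cores (circles). All 3 CBF genes carry the short form of the evening element (stars).

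The genes also differ in how alike their copies are. ZAT6 and ZAT10 were identical at 72.1% of aligned coding bases, SZF1 and SZF2 at 67.5%, and ZAT11 and ZAT12 at 52.5%. The other ZAT pairs lay between 41.1 and 46.9%. Each ZAT gene encodes 2 QALGGH stretches, the part of the finger that contacts DNA. The first stretch of each is shown because it identifies the family, with capitals at the 6 of 18 bases that differ among the 4 genes.
ZAT6 finger: caGgcTCtTggTggAcac
ZAT10 finger: caAgcTCtCggTggTcac
ZAT11 finger: caAgcCCtTggTggCcac
ZAT12 finger: caAgcCTtAggAggTcac
ZAT6, ZAT10 and ZAT11 each encode the residues DLN, a core of one kind of EAR motif, 35, 37 and 28 residues before the end of the protein. These letters were not found in ZAT12. In both SZF1 and SZF2 the first CCCH finger spanned 19 residues and the second 16. The CBF genes stand in a row on chromosome 4 within 7747 bases, in the order CBF2, CBF3, CBF1, with gaps of 1774 and 2379 bases. Their coding sequences were identical at 85 to 86.7% of aligned bases. The stretch that encodes the conserved residues just before the AP2 domain is shown because it separates the CBF copies at 5 of 48 bases, in capitals.
CBF1 signature: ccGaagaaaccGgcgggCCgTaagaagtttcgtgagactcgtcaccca
CBF2 signature: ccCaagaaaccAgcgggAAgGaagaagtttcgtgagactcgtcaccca
CBF3 signature: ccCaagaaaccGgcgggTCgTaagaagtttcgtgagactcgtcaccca
Windows of 50 bases that occur more than once in the genome made up 2.48% of the CBF1 transcript, 3.95% of CBF2 and 0.596% of CBF3, and 0% of the other 6 genes. With windows of 100 bases the share was 0% for all 9. How reads with more than one match were treated is not stated, so the split of reads among the CBF copies is uncertain. CBF3 overlaps a non-coding gene on the opposite strand, AT4G07385, by 29 bases. That gene had 2 counts in LNJ-OX replicate 1, 1 count in jazD replicate 2 and 0 in the other 4 libraries. Whether the counting used strand is not stated.

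Levels are given as CPM, the count of a gene scaled to library size, with TMM factors that correct for library composition. Library totals ran from 10164591 to 15003290 counts. AFP2, to which the transgene is related, reached 63.5 and 50 CPM in the LNJ-OX libraries and lay between 8.19 and 11.0 CPM in the other 4. The study describes LITTLE NINJA as an isoform of AFP2. The AFP2 counts do not separate transgene RNA from that of the endogenous gene. Summed leaf markers lay between 25150 and 41380 CPM. Of the root markers, EXPA7, LRX1 and BGLU21 had 0 counts in all libraries except 1 count of EXPA7 in jazD replicate 1. COBL9 had 7 and 3 counts for Col-0, 4 and 9 for LNJ-OX, and 1 and 2 for jazD. The summed root list was 9.07 to 21.4 CPM for Col-0, 25.6 to 46.0 CPM for LNJ-OX and 99.4 to 172.9 CPM for jazD, and BGLU23 made up nearly all of it. Summed flower markers were 64.6 to 86.1 CPM for Col-0, 42.0 to 90.4 for LNJ-OX and 19.5 to 28.5 for jazD. The part of these differences in the values that follow was not tested. In whole shoots, fewer cells of a type and less RNA per cell cannot be told apart. A gene was tested if it passed edgeR's filter on low counts. It was called if its Benjamini-Hochberg adjusted p was below 0.01 and its log2 fold change exceeded 1 in either direction. ZAT6, ZAT10, ZAT12, SZF1, SZF2 and CBF3 passed the filter. ZAT11, CBF1 and CBF2 did not. The filter requires its minimum in 2 libraries, and CBF3 met it in Col-0 replicate 1, with 14 counts, and in LNJ-OX replicate 1, with 37.

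SZF2 rose in LNJ-OX and was the only member called against Col-0 there. Its level was 23.8 and 17 CPM in the Col-0 libraries, 56.6 and 54.0 CPM in LNJ-OX, and 25.5 and 21.9 CPM in jazD. The LNJ-OX libraries thus lay above the other 4, among which Col-0 and jazD overlapped. The fold change against Col-0 was 2.7, a log2 fold change of 1.43 (SE 0.244, adjusted p = 0.00886, edgeR). In this comparison 0.837% of the 21374 genes tested were called higher and 0.585% lower. Against jazD the log2 fold change was 1.22 (SE 0.244, adjusted p = 0.0283), which did not pass the threshold. Between jazD and Col-0 it was 0.21 (SE 0.245, adjusted p = 0.818). The call against Col-0 was lost in each fit that left out a library, with log2 fold changes between 1.22 and 1.72, and also with library totals and in a fit of the 4 libraries compared. Over 15 alternatives 7 called it, with adjusted p from 9.88e-06 to 0.05.

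SZF1 behaved much like SZF2 at a smaller distance from the wild type. Its level was 29.04 and 22.1 CPM in Col-0, 54.1 and 54.5 CPM in LNJ-OX, and 34.7 and 33.4 CPM in jazD. The 3 genotypes did not overlap, with jazD between the other two. The LNJ-OX level was 2.12-fold that of Col-0, with a log2 fold change of 1.08 and an SE of 0.23, and the adjusted p of 0.0232 from edgeR missed the threshold. The log2 fold change of jazD against Col-0 was 0.41 (SE 0.23, adjusted p = 0.488), and that of LNJ-OX against jazD was 0.67 (SE 0.229, adjusted p = 0.201). Over the 6 libraries log2 CPM of SZF1 and SZF2 had a Pearson r of 0.969, with genotype and library shared by all points.

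ZAT6 was highest in jazD instead. Its level was 12.9 and 8.55 CPM in Col-0, 8.69 and 6.71 CPM in LNJ-OX, and 24.6 and 44.2 CPM in jazD. Both jazD libraries lay above the other 4, although replicate 1 was at 0.557 of the level of replicate 2. Col-0 and LNJ-OX overlapped. The jazD level was 3.2-fold that of Col-0, with a log2 fold change of 1.68 and an SE of 0.332, and its adjusted p of 0.0184 from edgeR missed the threshold. No member was called in jazD against Col-0 by edgeR, where 0.44% of genes tested were called higher and 0.674% lower. At an unadjusted p under 0.05 there were 2 members, ZAT6 and ZAT10, in a comparison where 14.9% of genes tested reached that level. DESeq2 called 1 member, ZAT6, and limma-voom 0. Over 15 alternatives 7 called ZAT6 in jazD, with adjusted p from 7.13e-07 to 0.201. LNJ-OX against Col-0 gave a log2 fold change of -0.48 for ZAT6 (SE 0.337, adjusted p = 0.501).

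ZAT6 was also the only member called between LNJ-OX and jazD. It was 4.46-fold lower in LNJ-OX, at a log2 fold change of -2.16 (SE 0.339, adjusted p = 0.00797, edgeR). In that comparison 0.332% of genes tested were called lower in LNJ-OX and 0.449% higher. The call was kept when Col-0 replicate 1, Col-0 replicate 2 or jazD replicate 1 was left out. It was lost without jazD replicate 2, without LNJ-OX replicate 1 and without LNJ-OX replicate 2, and over these 6 fits the log2 fold change ran from -2.52 to -1.68. It was also lost with library totals and with limma-voom. Over 15 alternatives 10 called it, with adjusted p from 1.36e-10 to 0.105. ZAT6 has been linked to phosphate supply and to tolerance of cadmium and cold.

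ZAT10 was higher than Col-0 in both other genotypes. Its level was 8.88 and 7.98 CPM in Col-0, 18.2 and 10.6 CPM in LNJ-OX, and 16.9 and 19.2 CPM in jazD. All 4 libraries of the altered genotypes lay above both wild-type libraries, and those of LNJ-OX and jazD overlapped. LNJ-OX gave a log2 fold change of 0.77 (SE 0.301, adjusted p = 0.194, edgeR), which was 0.33 without LNJ-OX replicate 1, and jazD 1.10 (SE 0.303, adjusted p = 0.0777). Between LNJ-OX and jazD it was -0.32 (SE 0.295, adjusted p = 0.726).

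ZAT12 had its highest value in a single LNJ-OX library. Its level was 4.98 and 7.70 CPM in Col-0, 20.3 and 9.21 CPM in LNJ-OX, and 9.12 and 9.14 CPM in jazD. LNJ-OX replicate 2 was close to the jazD libraries. The log2 fold change in LNJ-OX was 1.23 (SE 0.387, adjusted p = 0.109, edgeR), and it was 0.56 without LNJ-OX replicate 1. In jazD it was 0.54 (SE 0.393, adjusted p = 0.643). Between LNJ-OX and jazD it was 0.70 (SE 0.382, adjusted p = 0.489).

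ZAT11 was too rare to be tested. The Col-0 libraries held 0 and 1 counts of it, the LNJ-OX libraries 12 and 3 counts, and the jazD libraries 4 and 6 counts. A count of 0 allows a level of up to 0.189 CPM in Col-0 replicate 1, taken as 3 counts. The pooled level was 14.8-fold that of Col-0 in LNJ-OX, with an exact 95% counting interval from 2.28 to 625, and 13.2-fold in jazD, from 1.87 to 571. These intervals cover counting error only and not the spread between libraries. ZAT11 is known from oxidative stress and cell death.

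**Figure D2:**
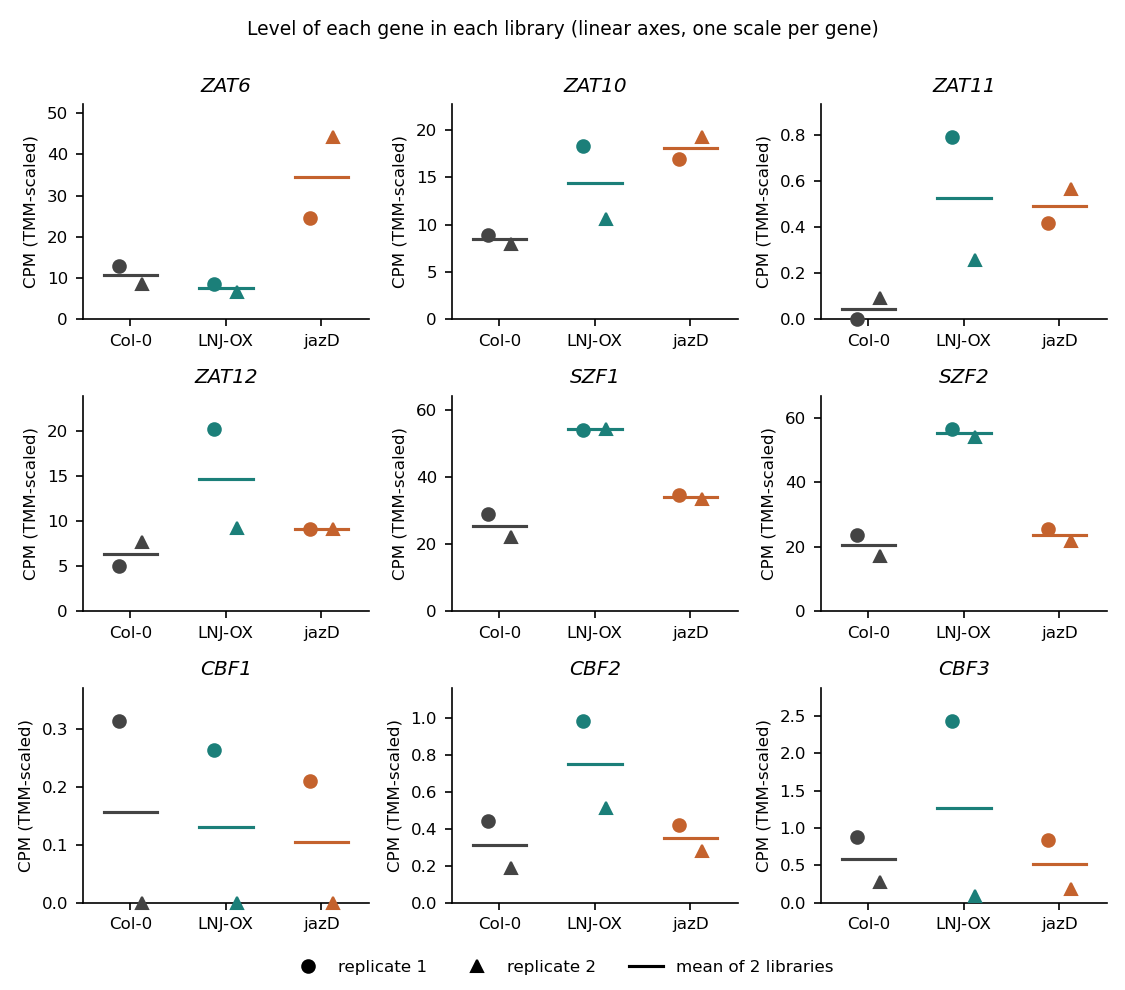
Level of each of the 9 genes in each library, in TMM-scaled CPM on linear axes that start at 0, with circles for replicate 1, triangles for replicate 2 and a bar at the mean of the 2 libraries. SZF1 and SZF2 are highest in LNJ-OX, ZAT6 is highest in jazD, and each CBF gene is higher in replicate 1 of every genotype.

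The non-overlapping members can be set beside all genes tested. The 9 members include ZAT11, CBF1 and CBF2, which did not pass the filter, whereas the shares below cover only genes that passed it. In LNJ-OX 6 of the 9 members, ZAT10, ZAT11, ZAT12, SZF1, SZF2 and CBF2, had both libraries above both Col-0 libraries, and 24% of the genes tested did. In jazD 5 members, ZAT6, ZAT10, ZAT11, ZAT12 and SZF1, did so, where 19.5% of the genes tested did. In LNJ-OX against jazD 4 members (ZAT12, SZF1, SZF2 and CBF2) lay apart on the high side and ZAT6 on the low side, where 25.5% and 25% of the genes tested did. The members were picked with earlier results of these data known, and both Col-0 comparisons share the same wild-type libraries.

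**Figure D3:**
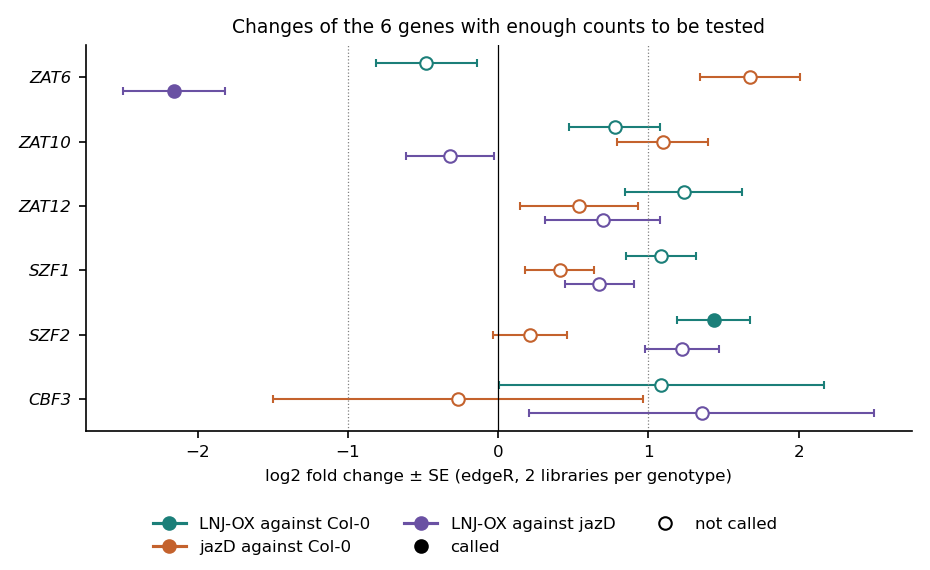
Log2 fold change with its SE for the 6 genes tested in the 3 comparisons, from edgeR with 2 libraries per genotype, where filled points were called and dotted lines mark a log2 fold change of 1 in either direction. SZF2 at 1.43 in LNJ-OX against Col-0 and ZAT6 at -2.16 in LNJ-OX against jazD are the only filled points, and the bars of CBF3 are the widest.

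The CBF genes were near the limit of detection in all 3 genotypes. CBF1 had 5 and 0 counts for Col-0, 4 and 0 counts for LNJ-OX, and 2 and 0 counts for jazD. CBF2 had 7 and 2 counts for Col-0, 15 and 6 counts for LNJ-OX, and 4 and 3 counts for jazD. CBF3 had 14 and 3 counts for Col-0, 37 and 1 counts for LNJ-OX, and 8 and 2 counts for jazD. In each genotype and for each of these genes the larger value was in the library numbered 1. This was so for 12.1% of all genes tested, a set without CBF1 and CBF2. Only CBF2 in LNJ-OX lay above both libraries of Col-0 and of jazD. For CBF2 the pooled ratio of LNJ-OX to Col-0 was 2.31 (exact 95% counting interval 1.01 to 5.73) and that of jazD to Col-0 was 1.02 (0.324 to 3.09). For CBF1 the pooled ratios were 0.791 (0.157 to 3.68) and 0.527 (0.0501 to 3.22). CBF3 had log2 fold changes of 1.09 (SE 1.08, adjusted p = 0.646, edgeR) in LNJ-OX and -0.27 (SE 1.23, adjusted p = 0.968) in jazD, and 1.35 (SE 1.15, adjusted p = 0.696) between LNJ-OX and jazD. Without LNJ-OX replicate 1 the first of these became -2.67 and the last -2.41. No difference of CBF levels between genotypes was shown, and the CBF3 libraries of a genotype themselves differed 3.13-fold for Col-0, 28.3-fold for LNJ-OX and 4.45-fold for jazD.

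Summed over CBF1, CBF2 and CBF3, the libraries numbered 1 held 26 reads for Col-0, 56 for LNJ-OX and 14 for jazD, and those numbered 2 held 5, 7 and 5. The replicates of a genotype thus differed 3.49-fold for Col-0, 6.12-fold for LNJ-OX and 3.11-fold for jazD, with lower counting limits of 1.32, 2.78 and 1.06. PRR5, a clock gene expressed late in the day, was also higher in the libraries numbered 1. Its level was 3.91 and 0.376 CPM in the Col-0 libraries, 13.7 and 1.29 CPM in LNJ-OX, and 10.6 and 0.566 CPM in jazD. Replicate 1 was thus 10.4-fold, 10.6-fold and 18.7-fold above replicate 2. Of the 9 clock genes, PRR5, PRR7, GI, TOC1 and ELF4 were higher in replicate 1 of every genotype, although GI in LNJ-OX was at 44.7 and 44.4 CPM. PRR9, LUX and the morning genes CCA1 and LHY had no common direction. Higher in replicate 1 of every genotype were also 5 of the 13 rapid wound, touch and elicitor genes. So were 4 of the 10 cold-response targets, 3 of the 6 other DREB genes and 3 of the 9 CCCH relatives. Of the 13 upstream regulators 3 were, and of the 10 C2H2 relatives 0. Over all genes tested 12.1% were higher and 11.2% lower in replicate 1 of every genotype. CBF4, a DREB gene that was not tested, counts among the former with 2 and 0 reads for Col-0. It had 1 and 0 reads for LNJ-OX and 1 and 0 for jazD. CCA1 was 696.1 and 404.5 CPM in Col-0, 471.9 and 546.7 CPM in LNJ-OX, and 519.1 and 546.6 CPM in jazD. The part of the clock genes in the CBF values was not tested.

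**Figure D4:**
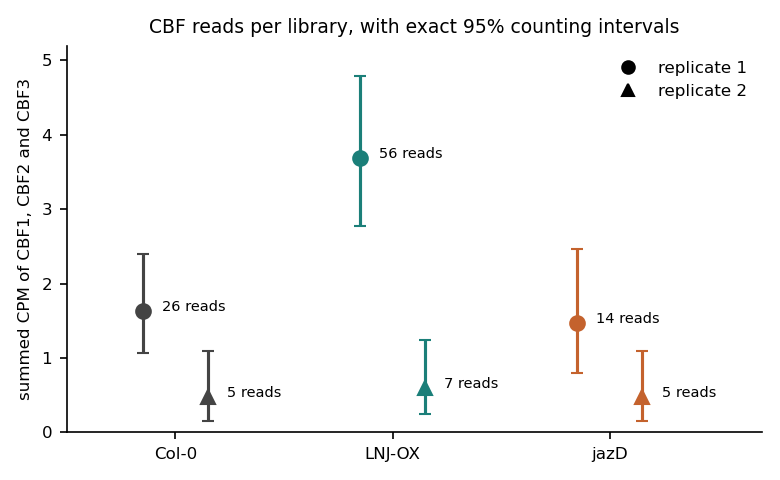
Summed CPM of CBF1, CBF2 and CBF3 in each library with exact 95% counting intervals, and the number of reads beside each point. In each genotype replicate 1 (circle) lies above replicate 2 (triangle), and LNJ-OX replicate 1 with 56 reads is the highest.

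Compared per length, the members formed 2 tiers in the wild type. Mean levels in Col-0 were 10.9 ± 2.11 CPM per kb of exon for SZF1 (SD, n = 2), 8.27 ± 1.94 for SZF2, 8.20 ± 2.33 for ZAT6, 6.47 ± 0.489 for ZAT10 and 6.46 ± 1.96 for ZAT12. CBF3 followed at 0.418 ± 0.305, CBF2 at 0.319 ± 0.182, CBF1 at 0.129 ± 0.183 and ZAT11 at 0.0499 ± 0.0706 CPM per kb. SZF1 exceeded SZF2, and CBF2 exceeded CBF1, by more than the SD of either, and other neighbours within a tier differed by less than the larger SD. The Col-0 libraries of all neighbours within a tier overlapped. In LNJ-OX SZF1 at 23.2 ± 0.108 and SZF2 at 22.4 ± 0.745 CPM per kb led the order, and in jazD ZAT6 at 26.4 ± 10.6 CPM per kb led it, before SZF1 at 14.6 ± 0.406 and ZAT10 at 13.9 ± 1.27.

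Genes of the same families and pathways were counted from fixed lists. Of 10 further C2H2 genes related to the ZAT genes, 8 were tested, and 1 of them, ZAT7, was called. Over all genes tested 0.837% were called higher in LNJ-OX against Col-0 and 0.449% in LNJ-OX against jazD. At an unadjusted p under 0.05, 3 of the list were higher and 0 lower in LNJ-OX against Col-0, beside 18.4% of all genes. In jazD against Col-0 the list had 0 at that level, beside 14.9%. ZAT7 had 4.79 and 9.20 CPM in Col-0, 35.9 and 27.97 CPM in LNJ-OX, and 5.35 and 3.21 CPM in jazD. It rose in LNJ-OX, with log2 fold changes of 2.21 against Col-0 (SE 0.357, adjusted p = 0.00741, edgeR) and 2.91 against jazD (SE 0.376, adjusted p = 0.00244). Its LNJ-OX libraries lay above the other 4, as did those of SZF2. The list had a median of 0.16 in LNJ-OX and -0.40 in jazD on the log2 scale, and over all genes tested it was -0.0083 and 0.0075.

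None of the 8 tested CCCH genes related to SZF1 and SZF2, of 9 listed, was called by edgeR. At an unadjusted p under 0.05, 2 genes, TZF1 and TZF5, were higher in LNJ-OX, and 2 genes, TZF1 and TZF4, in jazD. That level was reached by 18.4% of all genes in LNJ-OX and 14.9% in jazD, in either direction. TZF4 passed the low-count filter only through the jazD libraries, where it was high, so its p in jazD carries no weight. TZF5 had the largest estimate in LNJ-OX apart from TZF4, a log2 fold change of 1.65 (SE 0.413, adjusted p = 0.0465, edgeR). TZF1 was at 34.97 and 33.9 CPM in Col-0, 86.8 and 63.1 CPM in LNJ-OX, and 61.6 and 67.3 CPM in jazD, so that both altered genotypes lay above the wild type. Its log2 fold changes were 1.12 (adjusted p = 0.0247) and 0.90 (adjusted p = 0.068). TZF4, known as SOMNUS, a regulator of seed germination, had 0 counts in both Col-0 libraries, 0 and 2 counts for LNJ-OX, and 9 and 14 counts for jazD. The jazD level was at least 10.1-fold higher than a floor of 3 counts over the Col-0 group. The median of the list was 0.48 in LNJ-OX and 0.23 in jazD. Without TZF4 the median was 0.46 in LNJ-OX and 0.11 in jazD, the value of TZF5. With TZF4 at its bound it was 0.23 in jazD.

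The rapid wound, touch and elicitor genes had the highest list median in LNJ-OX. Of 13 genes 4 were called higher in LNJ-OX against Col-0, where 0.837% of all genes tested were, and their median was 1.60. At an unadjusted p under 0.05 there were 9, all higher, and 18.4% of all genes reached that level in either direction. In jazD edgeR called 0, with a median of 0.51, and 5 were at an unadjusted p under 0.05, all higher, beside 14.9% of all genes. TCH4, a touch-induced cell wall enzyme, was at 5.17 and 8.26 CPM in Col-0, 58.6 and 55.3 CPM in LNJ-OX, and 21.1 and 19.0 CPM in jazD. Its 3 genotypes did not overlap, and its log2 fold change in LNJ-OX was 3.10 (SE 0.28, adjusted p = 0.00109). TCH3, a calmodulin-like protein, rose in LNJ-OX by a log2 fold change of 2.08 (SE 0.276, adjusted p = 0.00365).

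The other called genes of that list encode WRKY factors, which bind W-box motifs. WRKY46 was at 15.9 and 15.03 CPM in Col-0, 77.8 and 70.0 CPM in LNJ-OX, and 14.6 and 15.3 CPM in jazD. It rose in LNJ-OX against both other genotypes, by log2 fold changes of 2.25 against Col-0 (SE 0.226, adjusted p = 0.00126, edgeR) and 2.31 against jazD (SE 0.228, adjusted p = 0.000438). WRKY40 was at 8.00 and 5.26 CPM in Col-0, 28.8 and 19.2 CPM in LNJ-OX, and 14.3 and 10.9 CPM in jazD. Its log2 fold change in LNJ-OX was 1.84 (SE 0.316, adjusted p = 0.00905). The LNJ-OX libraries lay above the other 4 for both WRKY genes, as for SZF1 and SZF2. Those of jazD lay above Col-0 for WRKY40 and SZF1 but overlapped it for WRKY46 and SZF2. Whether a WRKY factor acts on SZF1 or SZF2 was not tested.

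None of 10 cold-response targets of the CBF proteins was called in a comparison. Of these, COR15B, COR413IM1, KIN2 and RD29A were higher in replicate 1 of every genotype, although RD29A in jazD was at 41.4 and 41.1 CPM. KIN1 was lower in replicate 1 of every genotype, and the other targets had no common direction. Over all genes tested 12.1% were higher and 11.2% lower in this way. On the log2 scale the median of the 10 targets was -0.59 for LNJ-OX and -0.20 for jazD. In LNJ-OX 4 of them were lower at an unadjusted p under 0.05, where 18.4% of genes tested reached that level in either direction. GOLS3, a galactinol synthase, was at 5.80 and 2.35 CPM in Col-0, 1.19 and 1.12 CPM in LNJ-OX, and 1.36 and 1.70 CPM in jazD. The Col-0 libraries lay above the other 4, and the log2 fold changes were -1.83 (SE 0.545, adjusted p = 0.0915, edgeR) and -1.42 (SE 0.543, adjusted p = 0.224). COR15A, a chloroplast protein of cold-hardened leaves, was at 112.0 and 72.0 CPM in Col-0, 71.6 and 32.2 CPM in LNJ-OX, and 70.8 and 73.2 CPM in jazD. Its log2 fold change in LNJ-OX was -0.82 (SE 0.357, adjusted p = 0.248). That of COR413IM1, a chloroplast membrane protein, in jazD was -0.90 (SE 0.433, adjusted p = 0.384).

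Regulators that act upstream of the CBF genes gave no call by edgeR among 13 tested, and at an unadjusted p under 0.05 there were 3 in LNJ-OX and 1 in jazD, all higher, beside 18.4 and 14.9% of all genes in either direction. Their log2 fold changes had medians of 0.31 in LNJ-OX and 0.17 in jazD. MYB15, a repressor of CBF genes, was at 2.58 and 1.13 CPM in Col-0, 6.52 and 4.05 CPM in LNJ-OX, and 2.31 and 2.73 CPM in jazD. CAMTA3, a calmodulin-binding activator that acts on the CM2 element, was at 38.0 and 35.7 CPM in Col-0, 66.3 and 70.9 CPM in LNJ-OX, and 45.9 and 34.7 CPM in jazD. For both, the LNJ-OX libraries lay above the other 4, and the log2 fold changes against Col-0 were 1.48 (adjusted p = 0.126, edgeR) and 0.90 (adjusted p = 0.0536). In jazD the largest estimates were those of PIF4, a light-signalling factor, at 1.09 (adjusted p = 0.127) and of ICE2, an activator of CBF genes, at 0.46 (adjusted p = 0.396). Of 6 other DREB genes only DREB2A and DREB2B were tested, with log2 fold changes of -0.22 and -0.01 for LNJ-OX and 0.59 and 0.52 for jazD, and neither was called. None of the 9 clock genes was called, and at an unadjusted p under 0.05 LNJ-OX gave 1 higher and 1 lower gene and jazD 1 higher gene, against the same shares of all genes. Their medians were -0.08 in LNJ-OX and 0.14 in jazD, and the largest estimates belonged to PRR5 (1.75 and 1.30) and ELF4 (1.46 and 1.33).

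The members' profiles over the 6 libraries were set beside those of other genes. Among 13449 genes of at least 10 CPM, those most like the mean SZF profile were CBP60G, AT5G41750, KEU, REP and AT4G08850, with Pearson r from 0.9933 to 0.9986. CBP60G is an activator of salicylic acid synthesis. Those most like the ZAT profile were B73, AT3G09010, AT1G74250, AAE5 and AT4G38860, with r from 0.9826 to 0.9942. Those most like the CBF profile were BBD1, RHF1A, AGD5, AT1G33970 and PHS2, with r from 0.9804 to 0.9868. An r above 0.9 was reached by 437, 161 and 66 genes respectively, and with 6 points from 3 genotypes such values are a description. Pairs within a set were not always the most alike. ZAT10 and ZAT11 had an r of 0.912 and CBF1 and CBF3 of 0.89, but ZAT6 had an r of 0.312 with ZAT11 and of -0.151 with ZAT12. CBF2 had an r of 0.878 with SZF2 and 0.839 with SZF1, against 0.606 with CBF1 and 0.665 with CBF3. The lowest value was that of ZAT6 and SZF2, at -0.488. ZAT11, CBF1 and CBF2, which did not pass the low-count filter, entered these pairs and the mean ZAT and CBF profiles. Values that include them rest on few counts.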

How the data were processed

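The authors deposited a table of read counts per gene for each of the 6 libraries. Per the labels, reads were trimmed with Trim Galore 0.6.3, aligned with HISAT2 2.1.0 to TAIR10 and counted with HTSeq 0.9.1. The strand setting and the treatment of reads with more than one match were not given in the sources used here. A pair of tables deposited by the authors holds their own comparisons with limma 3.38.3 (fold changes, p-values and mean expression) and was not used. Where the study's methods name leaves and another age, the labels (shoots of 21 days) were followed.

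The 32833 genes were filtered with filterByExpr, scaled with TMM factors and tested with glmQLFTest in edgeR 4.0.16 under R 4.3.3. All 6 libraries entered a single fit, and p-values were adjusted over 21374 genes by the Benjamini-Hochberg method. The thresholds were an adjusted p of 0.01 and an absolute log2 fold change of 1, as in the study. The procedure was tested on simulated data. Libraries of a genotype differed by far more than sampling noise (chi-square per degree of freedom 15.56 to 45.24), so none was a duplicate. Nothing says whether they came from separate cultures beyond being called biological replicates, and p-values measure the spread between these libraries. The dispersion common to all genes gave a coefficient of variation of 0.232. Precision differed by gene, with an SE of 0.23 for SZF1 and 1.08 for CBF3 in LNJ-OX against Col-0. Each SE was the absolute log2 fold change divided by the square root of the F statistic of the edgeR test. Counting intervals are exact at 95% and cover counting error only.

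The members, the gene lists and the tests were chosen with earlier results of these data known. Named list genes are those called in any comparison, otherwise the 2 of largest absolute log2 fold change against Col-0 in each genotype, and the 5 genes most like each set. PRR7, PRR9, GI, TOC1, LUX, CCA1, LHY, COR15B, KIN1, KIN2, RD29A and CBF4 were named after their values had been seen. Likeness was measured on log2 CPM with a prior count of 2. Sequences and motif shares came from the TAIR10.1 genome with RefSeq annotation, and alignments were made with Biopython 1.88. Of the identifiers counted, 32548 were found there. The alternatives tried were DESeq2 1.42.0, limma-voom (limma 3.58.1), scaling by relative log expression or by library totals, testing without a low-count filter or with 1 CPM required in 2 libraries, an adjusted p of 0.05, separate fits of 4 libraries, a block for the replicate number, and removal of each library in turn.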

Additional observations from a re-analysis of the deposited data

Results flagged for a closer look

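ZAT6 differed between the altered genotypes under the same contrast with the wild type, by the test of that difference itself. Its log2 fold change against Col-0 was -0.48 in LNJ-OX and 1.68 in jazD, and LNJ-OX against jazD gave -2.16 (SE 0.339, adjusted p = 0.00797, edgeR). The lowest jazD library was at 24.6 CPM and the highest LNJ-OX library at 8.69 CPM. The 2 jazD libraries were 24.6 and 44.2 CPM, and the call was lost without the higher of them.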

How the results depend on the processing

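Over the fold changes of the tested members, 228 alternative values kept direction and side of the threshold, 18 passed it anew, 13 no longer passed it and 6 changed direction. Of the last, CBF3 became -2.67 in LNJ-OX against Col-0 and -2.41 in LNJ-OX against jazD without LNJ-OX replicate 1, and in jazD against Col-0 it became 0.84 without Col-0 replicate 1 and 0.46 without jazD replicate 2. SZF2 in jazD against Col-0 became -0.0036 without Col-0 replicate 2, and ZAT10 in LNJ-OX against jazD became 0.0076 without LNJ-OX replicate 2. Over the fits leaving out a library, CBF3 ranged from -2.67 to 2.18, from -1.63 to 0.84 (jazD against Col-0) and from -2.41 to 2.72, SZF2 in jazD from -0.0036 to 0.50, and ZAT10 between LNJ-OX and jazD from -0.77 to 0.0076. The cause was not tested.

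In LNJ-OX against Col-0 the number of members called (1) was 0 with library totals and in the fit of the 4 libraries compared, 2 with DESeq2 and at an adjusted p of 0.05 (SZF1 added), 3 without a filter (ZAT12 and SZF1 added), and 0 in each fit leaving out a library. In jazD against Col-0 (0 called) it was 1 with DESeq2, in the fit of the 4 libraries and at an adjusted p of 0.05 (ZAT6 each time), 2 without a filter (ZAT6 and ZAT10), and 0 to 1 when a library was left out. In LNJ-OX against jazD (1 called) it was 0 with library totals and limma-voom, 2 without a filter, with DESeq2, in the fit of the 4 libraries and at an adjusted p of 0.05 (SZF2 added), and 0 to 2 when a library was left out.

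Over all genes 304, 238 and 167 were called in these comparisons. Library totals gave 231, 143 and 163, with 74, 49.7 and 63.8% of calls higher in place of 58.9, 39.5 and 57.5%, and limma-voom gave 235, 143 and 149, with 64.3, 54.5 and 55% higher. Counts were 1398, 1310 and 939 without a filter, 822, 718 and 502 with DESeq2, 170, 578 and 243 in fits of 4 libraries, and 1007, 870 and 441 at an adjusted p of 0.05. Leaving out a library gave 11 to 478, 32 to 592 and 52 to 236, the lowest without Col-0 replicate 1 in the Col-0 comparisons.

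The replicate numbers were not taken as pairs, since nothing says that they mark pairs. Over all genes tested, deviations of same-numbered libraries correlated at 0.0891, 0.0587 and -0.00281. PRR5 and the CBF genes were nevertheless higher in replicate 1 of every genotype. Whether same-numbered libraries shared a batch or an hour of harvest was not tested. With the number as a replicate block 670, 654 and 355 genes were called and 1, 1 and 1 members. ZAT6 was then called in jazD against Col-0 (log2 fold change 1.68, adjusted p = 0.00495), and no other member's call changed. Low counts kept ZAT11, CBF1 and CBF2 out of the test.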
